A study of Prunus persica with 9 samples.

Results

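The MIR395 family was examined in leaves of peach (Prunus persica var. Big Top) sprayed with PpPep2, a plant elicitor peptide of peach, that is, a short peptide of the plant itself that triggers defence responses. The members were the 9 pre_miRNA genes (genes annotated as miRNA precursors) that the study named MIR395a, MIR395c, MIR395f, MIR395i, MIR395j, MIR395k, MIR395l, MIR395m and MIR395n, out of 210 pre_miRNA genes in the deposited table. Small-RNA libraries were made from control leaves taken at t0 and from leaves taken 1 h and 24 h after a 1 µM PpPep2 spray, with 3 replicates each. All plants were juvenile, produced in vitro and acclimatized in a glasshouse, and each replicate pooled the 5 youngest fully expanded leaves of several plants, with the central vein removed. The sample labels call the t0 leaves mock, whereas the study's methods call them untreated. Every control leaf was taken at t0, so an effect of the peptide cannot be told apart from an effect of time or of handling. The study listed these 9 genes because its own test on these libraries called them, so the values at 24 h against t0 are a description of the genes and not independent evidence of their direction. The names came from the study, and leaf identity could not be checked because the table holds pre_miRNA genes only. Other annotated MIR395 loci were not analysed here, so sums below cover these 9 genes and not the family as a whole.

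miR395 is a conserved plant miRNA. In Arabidopsis it guides the cleavage of mRNAs for ATP sulfurylases, the enzymes that activate sulfate at the start of its assimilation into cysteine and glutathione, and of the mRNA of a low-affinity sulfate transporter. It accumulates in Arabidopsis when sulfate is scarce. Plant miRNAs pair with their targets along nearly the whole of their length. Reads of a mature form that several genes encode do not tell which gene made them, and that shapes how the gene values of this family can be read.

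The mature sequences are shown because they set which gene values can be told apart. They are the forms the study listed for these genes, written 5′ to 3′ with the seed (bases 2 to 8) in capitals.
miR395c-n: cUGAAGUGuuugggggaacuc
miR395a-3p: cUGAAGUGuuuggggggaccc
miR395a-5p: gUUCCCUCaaacacuucauu
The form here called miR395c-n was listed for the 8 members other than MIR395a, with no difference between them. The 3p form of MIR395a was the same at 19 of 21 positions. Counted from the 5′ end, with the shared form given first, the substitutions were A17G and U20C, so both lay in the 3′ part and the seed UGAAGUG was common to all 9 genes. That seed was found in 9 of the 39 mature forms the study listed, all of them MIR395. The 5p form was listed for MIR395a only and was 20 nt long. Laid against the 3p forms with a 3′ overhang of 2 nt, it faced miR395a-3p with 16 Watson-Crick and 2 G-U pairs over 19 positions, and faced miR395c-n with 17 Watson-Crick pairs and 1 G-U pair.

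Expression was given as normalized counts, that is, read counts divided by a scaling factor of each library. All values in a library were whole multiples of 1 step within 0.006 normalized counts, and with that step taken as 1 read the depths were 481412, 115519 and 546709 pre_miRNA reads at t0, 338631, 267132 and 224961 reads at 1 h, and 218684, 138926 and 292359 reads at 24 h. The read numbers given below rest on that step. A value of 0 allows up to 3 reads, which were worth between 1.47 and 8.53 normalized counts depending on the library. Such floors and the counting intervals below cover counting error only. The libraries are bulk, so fewer cells of a type and less RNA per cell cannot be told apart.

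The summed counts of the 9 genes were lower at 24 h than at t0. They were 2097.54, 1223.63 and 3364.31 normalized counts in the 24 h libraries, against 5379.93, 10746.13 and 9034.25 in the t0 libraries. The highest 24 h library lay below the lowest t0 library. At 1 h the sums were 1874.83, 4356.23 and 8121.74, which spanned a range that overlapped both other conditions. The mean was 8387 ± 2741 at t0, 4784 ± 3145 at 1 h and 2228.5 ± 1076 at 24 h (SD, n = 3 each). The 24 h mean was 26.6% of the t0 mean (log2 ratio -1.91), and the 1 h mean was 57.0% of it (log2 ratio -0.81). The 1 h ratio rested on single libraries, with a log2 ratio of -1.43 without 1 h replicate 3 and of -0.43 without 1 h replicate 1. The sum does not depend on how reads were divided among the 9 genes, but it can still depend on how shared reads were divided between them and other MIR395 loci. No test was made of a sum over chosen genes. As a share of all pre_miRNA counts, the 9 genes took 2.82 ± 0.886% at t0, 1.36 ± 0.775% at 1 h and 0.612 ± 0.290% at 24 h (SD, n = 3 each).

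**Figure D1:**
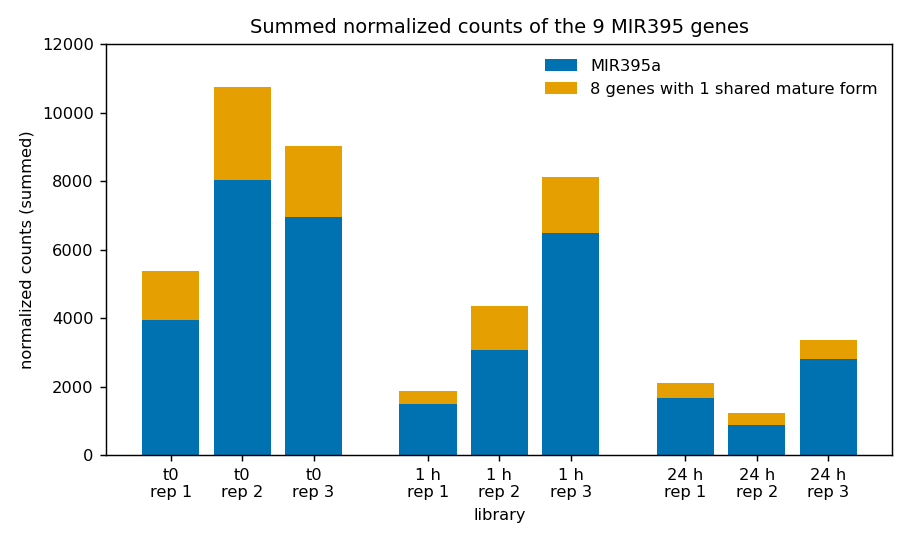
Summed normalized counts of the 9 MIR395 genes (vertical axis, linear from 0) in each of the 9 libraries, in the order t0, 1 h and 24 h, with the part of MIR395a and that of the 8 genes with a common mature form stacked. The t0 bars lie between 5379.93 and 10746.13, the 1 h bars between 1874.83 and 8121.74 and the 24 h bars between 1223.63 and 3364.31.

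MIR395a (ENSRNA049996107), the only member with a 3p form of its own, supplied most of the counts. It had 3955.81, 8035.42 and 6961.82 normalized counts at t0, 1507.01, 3058.57 and 6473.80 at 1 h, and 1664.58, 888.96 and 2822.05 at 24 h. The 24 h libraries did not overlap the t0 libraries, whereas the 1 h libraries reached into both. MIR395a made up 75.1 ± 1.79% of the summed counts at t0, 76.8 ± 5.69% at 1 h and 78.6 ± 5.65% at 24 h (SD, n = 3 each), so its share of the sum differed by less than the spread between replicates. Its difference at 24 h was -1.91 on the log2(normalized count + 1) scale (SE 0.58), which missed the threshold with a limma adjusted p of 0.0569.

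Of the 8 genes with the common form, MIR395l, k, n and c were the more abundant. MIR395l (ENSRNA049996100), the most abundant of them, had 884.32, 1538.82 and 1155.58 normalized counts at t0, 132.35, 681.82 and 858.37 at 1 h, and 234.52, 227.47 and 293.15 at 24 h. Each of its 1 h and 24 h values lay below every t0 value. MIR395k (ENSRNA049996172) had 164.18, 563.19 and 400.82 at t0, 70.64, 265.31 and 362.02 at 1 h, and 21.32, 0 and 88.07 at 24 h. The MIR395k replicates at 24 h ranged from no read to 70 reads, the widest spread of the 9 genes on the log2 scale. MIR395n (ENSRNA049996145) had 134.33, 312.88 and 250.94 at t0, 56.84, 221.32 and 276.84 at 1 h, and 83.64, 88.90 and 79.26 at 24 h. MIR395c (ENSRNA049996130) had 120.65, 88.18 and 115.70 at t0, 51.15, 56.36 and 76.99 at 1 h, and 70.52, 18.30 and 57.88 at 24 h. Thus the 24 h libraries of MIR395n were close to each other, while those of MIR395c differed more among themselves than its t0 libraries did.

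The other 4 genes, MIR395f, i, j and m, were scarce. MIR395f (ENSRNA049996180) had 37.31, 62.58 and 58.58 normalized counts at t0, 11.37, 12.37 and 37.68 at 1 h, and 4.92, 0 and 6.29 at 24 h. MIR395i (ENSRNA049996137) had 43.53, 59.73 and 46.38 at t0, 27.61, 19.24 and 9.83 at 1 h, and 0, 0 and 17.61 at 24 h. Neither passed 17.61 in a 24 h library or went under 37.31 in a t0 library. MIR395j (ENSRNA049996115) had 19.90, 76.80 and 22.46 at t0, 17.86, 30.24 and 16.38 at 1 h, and 14.76, 0 and 0 at 24 h. MIR395m (ENSRNA049996069) had 19.90, 8.53 and 21.97 at t0, 0, 11.00 and 9.83 at 1 h, and 3.28, 0 and 0 at 24 h. The MIR395m value at 24 h rested on 2 reads against 80 at t0, a depth-adjusted ratio of 5.61% with an exact 95% interval of 0.668 to 20.9%. Likewise MIR395f, i and j rested on 8, 14 and 9 reads at 24 h, against 202, 186 and 105 reads at t0.

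**Figure D2:**
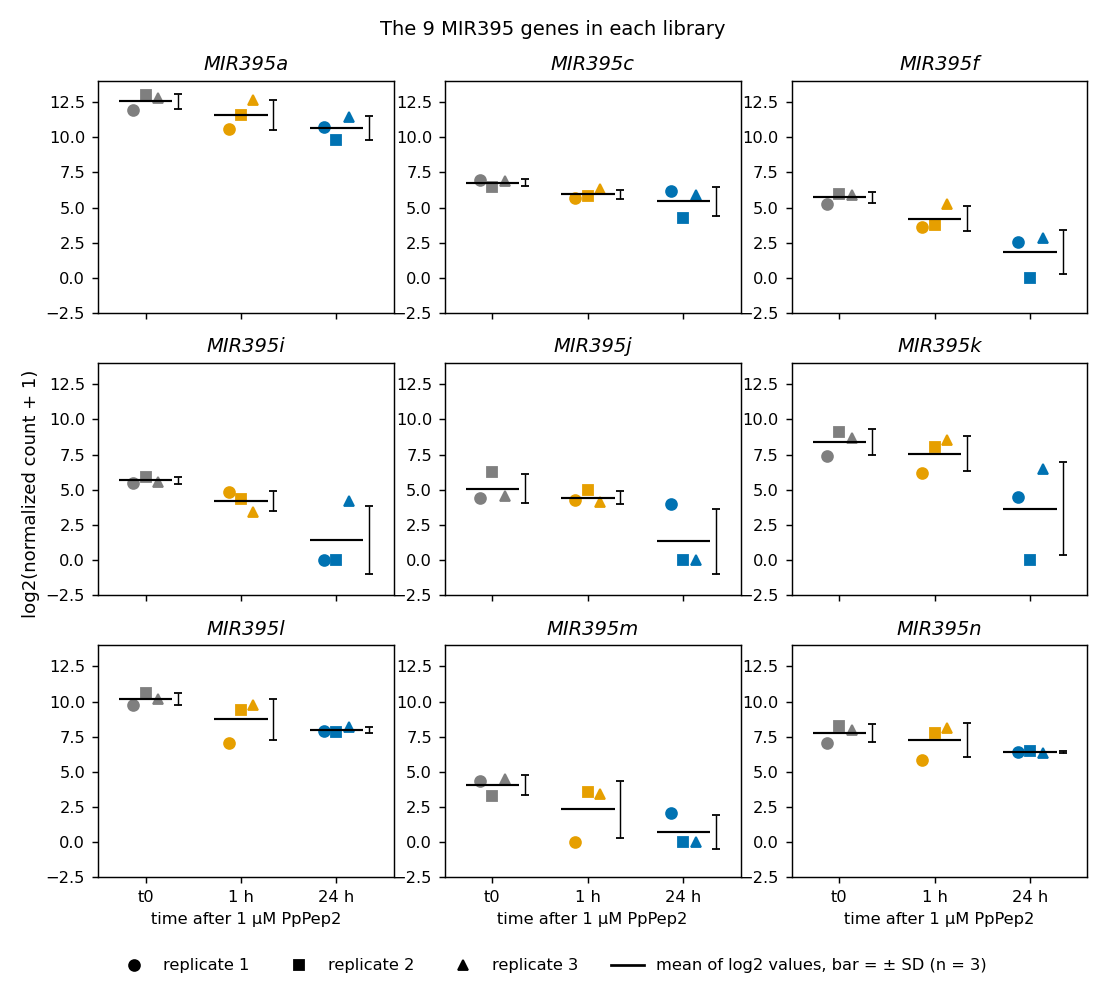
Each panel shows 1 MIR395 gene as log2(normalized count + 1) at t0, 1 h and 24 h after PpPep2, with a marker shape for each replicate, the mean as a line and the SD as a bar (n = 3). In every panel the 24 h libraries lie below all t0 libraries, and points at 0 have no read.

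At 24 h against t0 the question was which MIR395 genes differed beyond the spread between libraries. A gene was called at an adjusted p under 0.05 in a limma fit. The fit covered the 135 genes that averaged 5 normalized counts or more over all libraries, and all 9 MIR395 genes passed that filter. MIR395f, j and m averaged 3.74, 4.92 and 1.09 at 24 h, so they passed only through their t0 and 1 h libraries. MIR395f, i, j and l fell, which is 4 of 9, while 8.89% of the genes tested were called lower. As these genes were listed for this contrast, nothing is read from that count. MIR395f changed by -3.91 (SE 0.77, adjusted p = 0.0165), MIR395i by -4.25 (SE 1.03, adjusted p = 0.0334), MIR395j by -3.75 (SE 1.04, adjusted p = 0.0432) and MIR395l by -2.21 (SE 0.62, adjusted p = 0.0432), all from limma on the log2(normalized count + 1) scale. On the linear scale the 24 h mean of these genes was 7.07% of the t0 mean for MIR395f, 11.8% for MIR395i, 12.4% for MIR395j and 21.1% for MIR395l. MIR395k, with -4.73 (SE 1.44), had the largest error of the 9, and its limma adjusted p was 0.0569. Its value rested on 24 h replicate 2, in which it was at 0, and without that library its difference was -2.91. The limma adjusted p was 0.0638 for MIR395m, 0.0763 for MIR395c and 0.125 for MIR395n, and their 24 h means were 6.51% (MIR395m), 45.2% (MIR395c) and 36.1% (MIR395n) of the t0 means. All 9 genes had every 24 h library below every t0 library, as did 21.5% of the genes tested. Likewise all 9 differences were below 0, as were 51.1% of the genes tested. The median difference was -3.35 over the 9 genes and -0.01 over all genes tested.

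The number of calls depended on single libraries, over all genes as well as over the 9. Without t0 replicate 1, 2 or 3 no MIR395 gene was called, and over all genes 0 of 138, 4 of 135 and 0 of 137 were called lower. All 9 differences stayed below 0 in those fits. That of MIR395f was -4.13, -3.77 and -3.81, and that of MIR395j moved more, with -4.09, -3.14 and -4.01. Without 24 h replicate 1, 2 or 3 there were 2, 1 and 3 MIR395 calls among 4, 7 and 6 genes called lower. Without 1 h replicate 1, 2 or 3 there were 8, 2 and 4 MIR395 calls among 19, 10 and 15. The 1 h libraries enter this contrast through the common error and the filter, and 136 genes were tested without 1 h replicate 1. With each library scaled to the same pre_miRNA total, all 9 genes were called among 18 of 135 called lower, and the median difference was -3.54 over the 9 genes and -0.30 over all genes tested. With the same upper quartile, 3 of the 9 were called among 8 of 137, with medians of -3.09 and 0.38. The difference was below 0 for each of the 9 genes under every scaling tried.

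**Figure D3:**
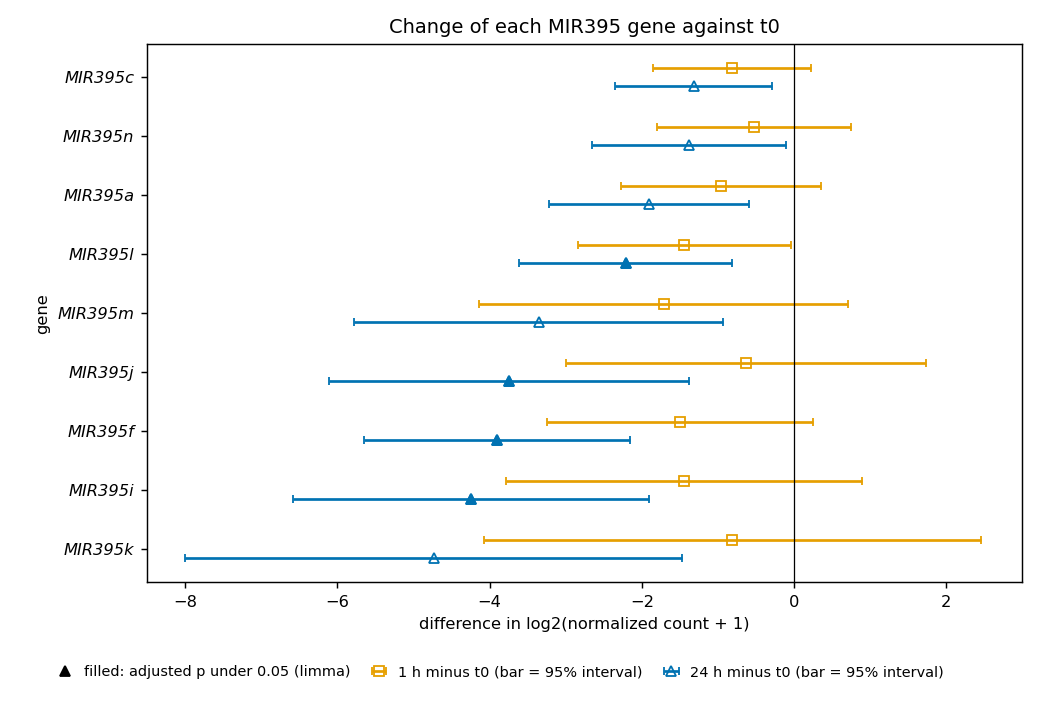
Differences of 1 h and of 24 h from t0 for each MIR395 gene on the log2(normalized count + 1) scale (horizontal axis), with 95% limma intervals as bars and filled symbols for an adjusted p under 0.05. The 24 h points lie between -4.73 and -1.32 and 4 of them are filled, where 8.89% of the genes tested were called lower. The 1 h points lie between -1.71 and -0.53 with none filled, where 0.741% of the genes tested were called.

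At 1 h after the spray, the 9 genes lay lower than at t0 by amounts that the replicates could not separate from 0. None of the 9 genes passed the limma test at 1 h against t0, with adjusted p-values between 0.352 and 0.824, while 0.741% of the genes tested were called. At an unadjusted p under 0.05 there was 1, MIR395l, against 7.41% of the genes tested. The differences ran from -1.71 for MIR395m to -0.53 for MIR395n, with a median of -0.96 over the 9 genes and -0.03 over all genes tested. All 9 were below 0, as were 54.8% of the genes tested. MIR395c, i and l had every 1 h library below every t0 library, which is 3 of 9, against 12.6% of the genes tested. The t0 libraries also enter the 24 h comparison, so the direction at 1 h is not separate evidence. Replicate 1 of the 1 h libraries held the lowest value of that condition for 7 of the 9 genes. Without it, the difference of MIR395n at 1 h was 0.17, while the other 8 were still below 0.

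The 24 h libraries were then set against the 1 h libraries, which tests whether the levels at both times differed. No MIR395 gene was called, nor was any of the 135 genes (0%), with limma adjusted p-values between 0.325 and 0.573 for the 9 genes. At an unadjusted p under 0.05 there were 4 of 9 (MIR395f, i, j and k), against 8.89% of the genes tested. MIR395f and MIR395j had every 24 h library below every 1 h library, which is 2 of 9, against 9.63% of the genes tested. All 9 differences were below 0, as were 45.9% of the genes tested, with a median of -1.64 over the 9 genes and 0.03 over all genes tested. Leaving out 1 h replicate 1, 24 h replicate 1 or 24 h replicate 3 gave 1 MIR395 call each, where 1, 1 and 2 of all genes were called lower. A difference between 1 h and 24 h was thus not separable from the spread between libraries, and the intervals of the difference reached -7.19 for MIR395k and -5.48 for MIR395j.

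The shares that the 8 genes with the common mature form held of their sum varied between libraries. That sum was 1424.12, 2710.71 and 2072.43 normalized counts at t0, 367.82, 1297.66 and 1647.94 at 1 h, and 432.96, 334.67 and 542.26 at 24 h. The 24 h mean was 21.1% of the t0 mean. MIR395l held 58.2 ± 3.40% of the sum at t0, 46.9 ± 9.43% at 1 h and 58.7 ± 8.00% at 24 h. MIR395n held 11.0 ± 1.41% at t0, 16.4 ± 0.861% at 1 h and 20.2 ± 6.02% at 24 h, and its shares at 1 h and at 24 h did not overlap those at t0. MIR395k held 17.2 ± 4.98% at t0, 20.5 ± 1.38% at 1 h and 7.06 ± 8.33% at 24 h, and its shares at 24 h overlapped those at t0 because of replicate 3, in which it held 16.2%. MIR395f, i, j and m together held 7.78 ± 0.640% at t0, 8.51 ± 6.04% at 1 h and 3.24 ± 2.84% at 24 h, and here every 24 h share lay below every t0 share (all errors SD, n = 3 each). These shares were not tested, and for genes with 1 mature form they rest on how the authors' counting divided reads between the loci. The 8 genes were also listed for a difference between t0 and 24 h, for which a scarce gene needs a large difference. That choice by itself can lower the 24 h share of MIR395f, i, j and m, so nothing is read from it.

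**Figure D4:**
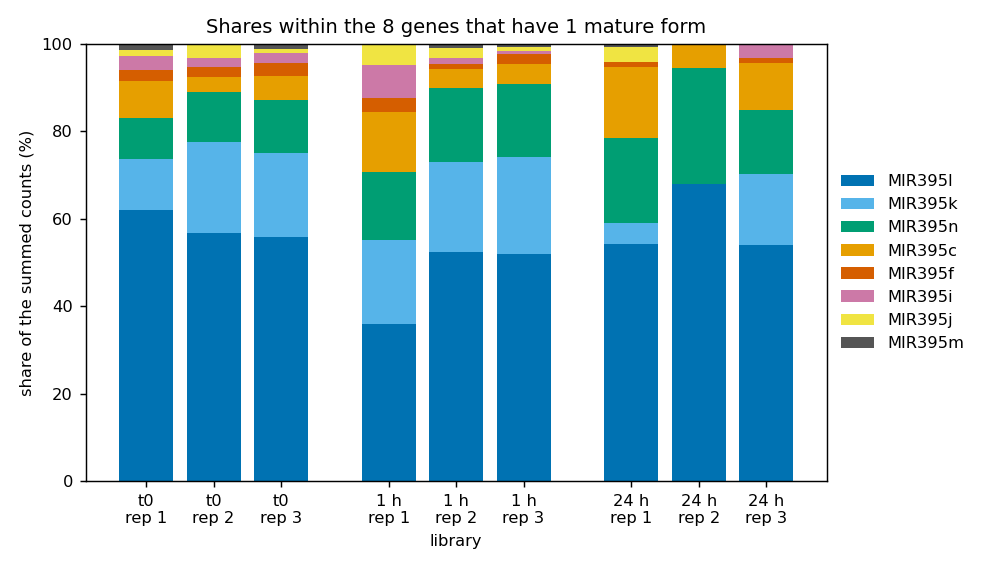
Share (%) of the summed normalized counts of the 8 genes with the common mature form that each gene held in each library, stacked to 100%, in the order t0, 1 h and 24 h. MIR395l holds the largest share in each library, and MIR395k ranges from 0 to 16.2% at 24 h against 11.5 to 20.8% at t0.

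The order of the levels was read within each condition. The mature 3p forms were all 21 nt, and the counts were not scaled for length. At t0, MIR395a led, and MIR395l, k, n, c, f, i, j and m followed in falling order, with non-overlapping ranges between MIR395a and l, l and k, n and c, and c and f only. The neighbours from MIR395f to MIR395m did not differ beyond their spread. At 24 h, MIR395n and MIR395c stood above MIR395k, which was above both in each t0 library, but the 24 h range of MIR395k overlapped those of both. MIR395a and MIR395l were the top pair in every condition. Across the 9 genes the t0 level and the log2 ratio of means at 24 h had a Pearson r of 0.54. Without MIR395a it was 0.49 (n = 8 genes). The genes share libraries and partly share reads, and the t0 mean enters both values. A scarce gene also needs a large difference to be listed, so no trend is read from this r.

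Over all 210 genes, the fewest above 0 were found in the shallowest library, with 150 in 24 h replicate 2 and 146 in t0 replicate 2. Of the 9 MIR395 genes, 5 were at 0 in 24 h replicate 2 (138926 reads), against none in t0 replicate 2 (115519 reads). The other 24 h libraries had 1 and 2 of the genes at 0, and at 1 h only MIR395m in replicate 1 was at 0. The replicates also stood apart from each other over several of the 9 genes at once. Replicate 1 of the t0 libraries held the lowest t0 value for 7 genes and replicate 2 the highest for 7. At 1 h, replicate 1 was lowest for 7 genes and replicate 3 highest for 6. These counts were not made over the other pre_miRNA genes. On the log2 scale over the 9 libraries, all 36 pairs of MIR395 genes had an r above 0, with a median of 0.74 and a range of 0.45 to 0.94. After the condition means were subtracted, 32 of 36 were above 0, with a median of 0.38 and a range of -0.43 to 0.96. MIR395l and MIR395n were the closest pair both before (r = 0.94) and after (r = 0.96) that step. These values are descriptive, since pairs share libraries, depth and, among the 8 genes, reads. All 9 genes were also listed for a difference between t0 and 24 h. That choice by itself raises r before the condition means are subtracted.

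Among the 95 non-members that averaged 20 normalized counts or more, miR169d was the most like the sum of the 9 genes over the 9 libraries (r = 0.75 on the log2 scale). Family members of miR169 are known in plants to target NF-YA transcription factors. miR169d had 58.46, 42.67 and 41.99 normalized counts at t0, 28.42, 20.62 and 31.12 at 1 h, and 4.92, 7.84 and 17.61 at 24 h. The next were ENSRNA049996092 (r = 0.71), ENSRNA049996020 (r = 0.67), miR535b (r = 0.62) and ENSRNA049997099 (r = 0.58). After the condition means were subtracted, r was 0.22 for miR169d and 0.57 for ENSRNA049996092. It was 0.20 for ENSRNA049996020, 0.25 for miR535b and 0.14 for ENSRNA049997099. For the sum of the 8 genes with the common form, miR535a (r = 0.67) took the place of ENSRNA049997099. Like the MIR395 genes, miR169d, miR535a and miR535b were listed by the study as lower at 24 h than at t0. That listing by itself raises r before the condition means are subtracted.

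Within conditions the nearest gene was another. When the condition means were subtracted, miR403 followed the sum of the 9 genes most closely (r = 0.97 over 9 libraries), ahead of miR7122b (0.89), ENSRNA049996662 (0.88), miR7122a (0.87) and miR162 (0.83). In Arabidopsis, miR403 targets the mRNA of an Argonaute protein and miR162 that of a Dicer-like protein. Between conditions miR403 ran the other way, with 1125.61, 1476.24 and 1318.65 normalized counts at t0, 1401.45, 1943.74 and 2124.62 at 1 h, and 2605.93, 2130.89 and 2791.85 at 24 h. Over the 9 libraries without that subtraction its r with the sum of the 9 genes was -0.41. Within each condition the library with the lowest sum was also the lowest in miR403, and the highest was the highest. Such values were the nearest of 95 genes in 9 libraries and are given as a description.

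**Figure D5:**
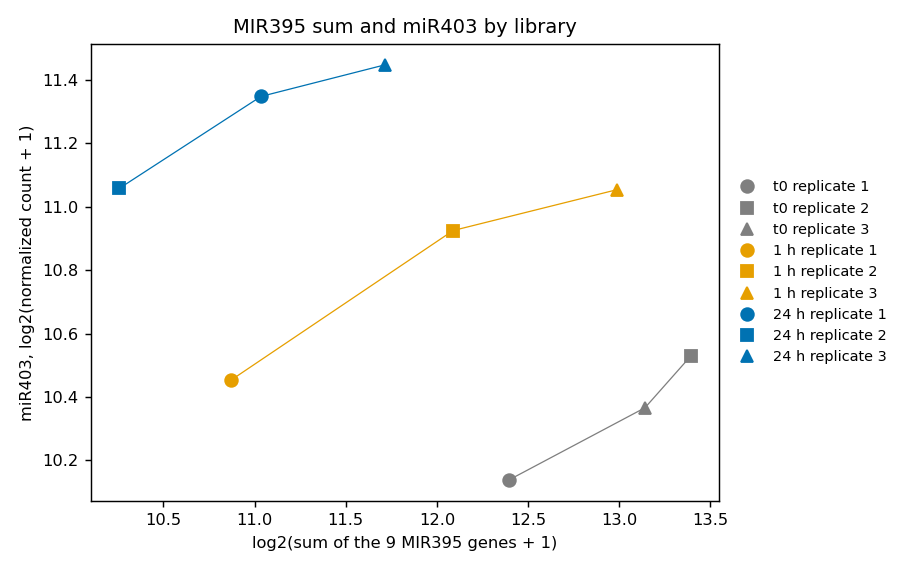
Log2 of the summed normalized counts of the 9 MIR395 genes plus 1 (horizontal axis) against log2(normalized count + 1) of miR403 (vertical axis) in the 9 libraries, with lines joining libraries of 1 condition. Within each condition the libraries keep the same order on both axes, whereas the 24 h libraries lie lower in MIR395 and higher in miR403 than the t0 libraries.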

How the data were processed

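The authors trimmed the small-RNA reads with Trim Galore 0.6.6, aligned them with STAR 2.5.3a to the peach genome Prunus_persica_NCBIv2.38 and counted them with RSEM 1.3.0 (seed length 16) over Ensembl Plants release 48. The deposited table holds 1 signal per gene and library, the authors' normalized counts, for 210 pre_miRNA genes in 9 libraries. The authors used DESeq2 1.26.0 for their tests. It was used as deposited. Names and mature sequences came from the study's supplementary list, of which only the sequences and names were used. None of the identifiers matched the RefSeq gene table at hand (0 of 210), so no coordinates are given.

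Values were analysed as log2(normalized count + 1) with limma 3.58.1 in R 4.3.3 (empirical Bayes with a trend, all 9 libraries in 1 fit, no replicate block), and p-values were adjusted by Benjamini-Hochberg over the 135 genes that averaged 5 or more. The value added compresses changes of low genes on this scale, while means of logs weigh libraries at 0 more than means of counts do. At 24 h against t0 the fitted difference was -4.25 for MIR395i and -3.35 for MIR395m, and the log2 ratio of means was -3.09 and -3.94. The p-values measure the spread between libraries. Simulated data for the 24 h comparison (135 genes, 27 changed) gave 86.9% of the changed genes at a log2 change of -2 and 19.6% at -1. The simulation set the same dispersion between libraries for every gene. In the fit, the residual SD of the MIR395 genes ran from 0.63 (MIR395c) to 2.11 (MIR395k) on the log2 scale. The simulated shares therefore do not give the power for the MIR395 genes. All 9 MIR395 genes are named, and non-members by their correlation with the sum of the 9. Members, lists and tests were chosen with earlier results of these data known. Alternatives covered the value added, the minimum mean, the scaling, the trend, the libraries fitted, the block and each library left out. Counting intervals of ratios are exact (95%). Python 3.11.15, scipy 1.17.1 and matplotlib 3.10.9 were used.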

Additional observations from a re-analysis of the deposited data

How the results depend on the processing

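At 24 h against t0, where 4 MIR395 genes were called among 12 of 135 genes called lower, there were 7 among 16 with 5 added before taking logs, 2 among 10 (of 194 tested) with no minimum mean, 6 among 15 (of 103) with a minimum mean of 20, 6 among 18 with only the 6 libraries compared, 9 among 18 when every library had the same total, 9 among 19 with the same total of the other pre_miRNA genes, 3 among 8 (of 137) with the same upper quartile and 2 among 7 with no trend in limma. Leaving out each library in turn gave 0 to 8 MIR395 calls, among 0 to 19 genes called lower. At 24 h against 1 h it gave 0 to 1, among 0 to 2 genes called lower. At 1 h against t0 no alternative gave a MIR395 call, where 0 to 8 of all genes were called lower. With libraries left out, the difference of MIR395n at 1 h against t0 ran from -0.96 to 0.17, above 0 only without 1 h replicate 1, and that of MIR395c at 24 h against 1 h from -0.87 to 0.076, above 0 only without 24 h replicate 2. The cause was not tested. With libraries left out, the log2 ratio of the sum of the 9 genes ran from -2.34 to -1.62 at 24 h against t0, from -1.43 to -0.43 at 1 h against t0 and from -1.53 to -0.48 at 24 h against 1 h. Count-model tests on recovered reads had been listed but were not run, since the rule for using them asks for 100 low values per library, more than these libraries hold, although all values were whole multiples of 1 step. The values of MIR395f, i, j and m at 24 h rest on few reads and on how reads of the common form were divided between loci. MIR395f, i and j averaged under 20 normalized counts at 24 h. They passed the minimum mean of 20 only through their t0 and 1 h libraries.

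With a replicate block, 3 MIR395 genes were called at 24 h against t0, among 8 of 135 genes called lower. MIR395i (limma adjusted p = 0.0581) and MIR395j (0.0642) were no longer called, and MIR395a (0.0479) was. The samples share only a number: deviations of libraries with the same number correlated at -0.41 to 0.17 (3 of 9 pairs over 0.1), and those with different numbers at -0.37 to 0.39 (4 of 18).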
